A study of Mus musculus with 5 samples.

Results

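This account concerns 8 mouse genes that act as brakes on T cell activation, the ubiquitin ligase genes Cblb, Cbl, Itch, Rnf128 and Peli1, the ligase adaptor gene Ndfip1, and the diacylglycerol kinase genes Dgka and Dgkz. They were listed by symbol, each was read from the probe set that carries its symbol alone and has the highest mean signal, and all 8 were found among the 19937 genes measured. RNA came from cells sorted as CD45+CD3+CD4+CD44low, that is CD4 T cells low in the activation marker CD44, from the colon lamina propria, the connective tissue under the gut epithelium. Signal was measured on 5 Affymetrix arrays. The 3 conditional arrays came from mice labelled conditional, CD4cre/Cnb1flox, in which Cre driven by CD4 acts on a floxed Cnb1 gene (symbol Ppp3r1, the regulatory subunit of calcineurin). The 2 control arrays came from CD4neg/Cnb1flox mice, which carry the same floxed gene without the CD4-driven Cre and are also labelled WT, and the labels name no treatment. CD4-driven Cre is known to act from the thymus onward, also in cells that later become CD8 T cells. The design text speaks of 3 independent experiments with 3 to 5 mice in each group. The sources used here give no age, and they do not say whether an array holds RNA of 1 mouse or of several, so p-values measure the spread between these arrays, which may be technical. The study asked how calcineurin B in CD4 T cells bears on JAK/STAT signalling and colitis.

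T cells that meet antigen without costimulation can become anergic, a lasting state in which the receptor signals poorly. Calcineurin and its substrate NFAT are known to switch on several anergy genes when the partner factor AP-1 is weak, and Cblb, Itch, Rnf128 and Dgka are textbook members of that group. The ligases tag receptor-proximal proteins with ubiquitin, and the kinases phosphorylate diacylglycerol, the lipid that recruits the Ras activator RasGRP1 and protein kinase C theta.

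Cblb was the member that rose, at the edge of the threshold and in 5 of 16 alternative settings, and the other 7 did not pass the test over all genes. It was 1.94-fold higher in conditional cells. Centring arrays on their T cell marker mean lowered the difference of every gene by the same amount. It therefore could not change the place of a gene against the median of all genes. On that scale that median was -1.18 and Cblb read -0.25. Itch and its adaptor Ndfip1 also read higher in every conditional array than in either control, by 0.42 and 0.50 on the log2 scale, without passing. Under that centring they read -0.79 and -0.71, below 0. For Cbl, Peli1, Dgka and Dgkz the conditional arrays lay between the controls, above control replicate 1 and below control replicate 2. Rnf128 lay between them in the opposite order. In limma with Benjamini-Hochberg adjustment, 1 of 8 members passed an adjusted p of 0.05, where 0.416% of all genes passed in either direction and 0.371% passed as higher. By unadjusted p under 0.05, 3 members qualified, all higher. Of all 19937 genes, 14.5% qualified in either direction, and 1713 genes qualified as higher.

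**Figure D1:**
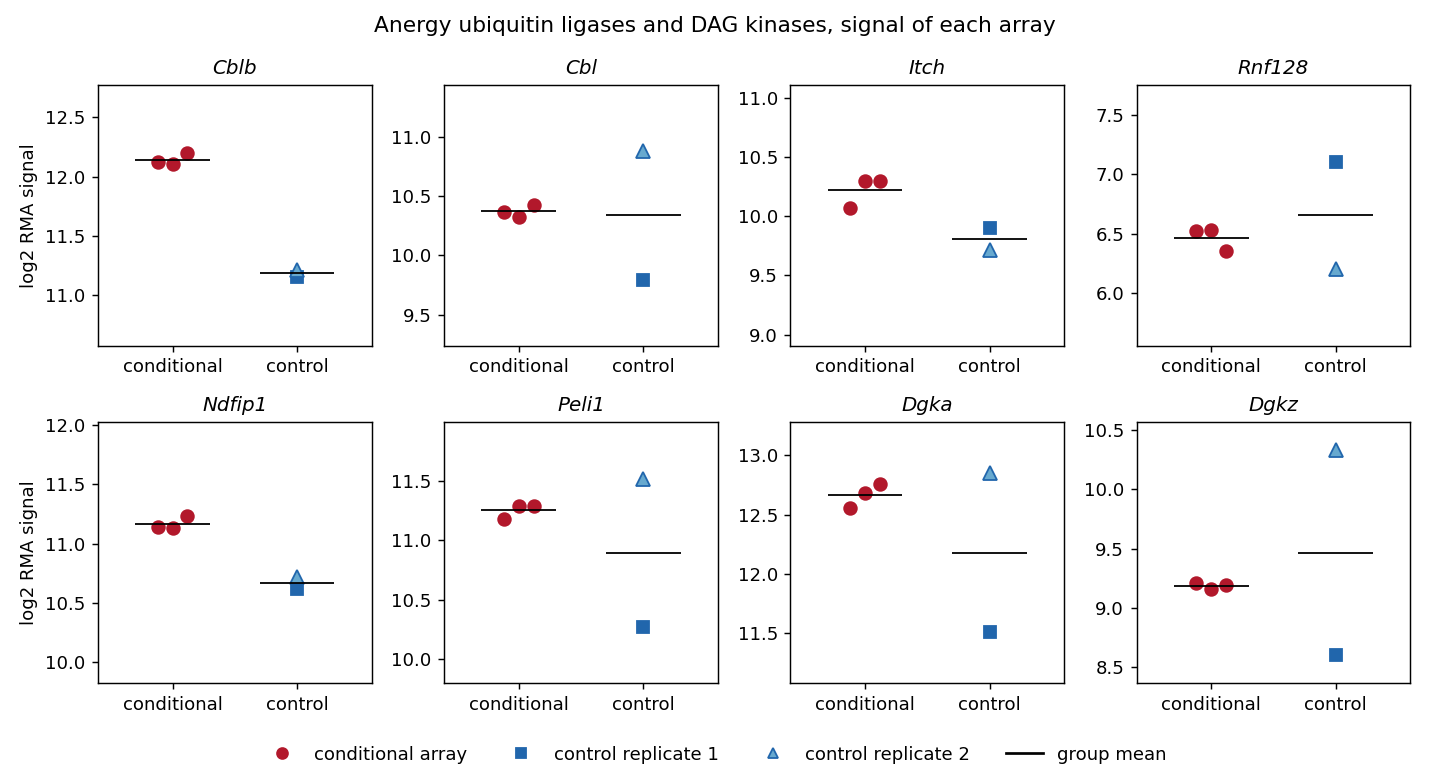
Log2 RMA signal of the 8 genes on each array (vertical axis, each panel spanning the same number of log2 units), for 3 conditional arrays (circles) and for control replicate 1 (square) and control replicate 2 (triangle), with lines at the group means. The controls sit close together for Cblb (11.15 and 11.21) and far apart for Dgkz (8.60 and 10.33).

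The controls did not resemble each other in cell type markers, which touches every value below. Control replicate 1 went against its label as sorted CD4 T cells, and whether that array is labelled rightly was not tested, so each member is also given against each control alone. The T cell list (13 of 15 markers measured, the lowest value being 5.74 for Trat1 in control replicate 1) had a mean log2 signal of 10.95 to 11.21 in conditional arrays, 8.47 in control replicate 1 and 11.25 in control replicate 2. Cd4, a gene of the sort, differed by 1.07 on average and by -0.21 against control replicate 2 alone, and Cd44 read 10.82, 10.97 and 11.15 in conditional arrays against 10.29 and 10.05. Epithelial markers (15 of 15 measured) ran the other way, at 7.94, 7.71 and 7.50 in conditional arrays, 9.89 in control replicate 1 and 8.39 in control replicate 2, and stromal and endothelial markers (12 of 12) at 8.49 to 9.55, 10.73 and 9.07. Macrophage, monocyte and dendritic cell markers (15 of 16) stood at 7.39 to 8.07 in conditional arrays and at 6.64 and 6.80 in the controls. Granulocyte and mast cell markers (12 of 12) stood at 6.55 to 6.71 against 5.96 and 6.08, and natural killer and innate lymphoid markers (6 of 8) at 7.36 to 7.52 against 6.17 and 6.88. B and plasma cell markers (9 of 10) read 8.43 to 9.15 against 9.43 and 9.02, and Cd8a with Cd8b1 read 7.51 to 7.96 against 6.92 and 8.32. RMA values have no zero and no detection call, so that no marker can be given as absent. The part of these cells in the results below was not tested, and in sorted bulk RNA fewer cells of a type and less RNA per cell cannot be told apart.

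**Figure D2:**
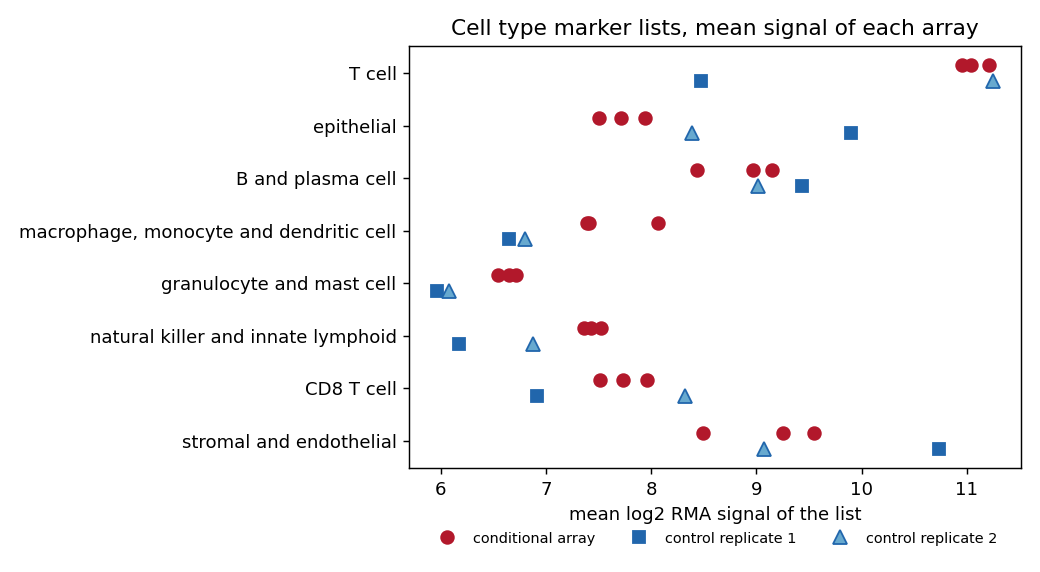
Mean log2 RMA signal of 8 marker lists (horizontal axis) on each conditional array (circles), control replicate 1 (squares) and control replicate 2 (triangles). Control replicate 1 stands apart at 8.47 for T cell and 9.89 for epithelial markers, while macrophage markers are higher in all 3 conditional arrays (7.39 to 8.07) than in both controls (6.64 and 6.80).

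The targeted gene Ppp3r1 did not separate the groups, at 8.64, 8.83 and 8.77 in conditional arrays and at 8.99 and 8.60 in control replicates 1 and 2. The deleted exons are not named in the sources used here, and a probe set outside them would check nothing. Ppp3ca, Ppp3cb and Ppp3cc, calcineurin subunit genes, differed by -0.21, 0.16 and -0.08, and Ppp3r2, the dimmest of them, by 0.10.

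Cblb encodes Cbl-b, the ligase whose loss lets T cells respond without CD28 costimulation. Its signal was 12.12, 12.10 and 12.20 in conditional replicates 1, 2 and 3 and 11.15 and 11.21 in control replicates 1 and 2. All 3 conditional arrays lay above both controls, and the controls differed by 0.06. The macrophage, granulocyte and natural killer marker means were also higher in all conditional arrays than in both controls, and their part in the Cblb signal was not tested. The group levels were 12.14 ± 0.0484 (SD, n = 3) and 11.18 ± 0.0429 (SD, n = 2), a difference of 0.96 ± 0.101 (SE), where limma put the 95% interval at 0.70 to 1.22 and the adjusted p at 0.0497. That p sits at the threshold, and it rose to between 0.271 and 0.354 when any conditional array was left out, with differences of 0.93 to 0.98. It was also above 0.05 with filters on dim genes (0.0529 and 0.0502), other probe set choices (0.0508 and 0.0511), array weights (0.137) and arrays centred on their medians (0.0543), again in limma. Against control replicate 1 alone the difference was 0.99 (limma, adjusted p = 0.00351) and against control replicate 2 alone 0.93 (limma, adjusted p = 0.0159). With the mean of the T cell markers as a covariate, a fit close to the comparison with control replicate 2 alone, it was 0.93 (limma, adjusted p = 0.0112). Centred on that mean, where the median of all genes was -1.18, it was -0.25 with a 95% interval of -2.42 to 1.92.

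Cbl encodes c-Cbl, the close relative that also marks activated receptor kinases for degradation. Its signal was 10.37, 10.32 and 10.43 in conditional arrays, 9.80 in control replicate 1 and 10.88 in control replicate 2. The conditional arrays agreed to within 0.11 and fell between controls that differed by 1.09. The fit in limma gave a difference of 0.03 ± 0.327 (SE), a 95% interval of -0.80 to 0.87 and an adjusted p of 0.979. It was 0.58 against control replicate 1 alone (limma, adjusted p = 0.0195) and -0.51 against control replicate 2 alone (limma, adjusted p = 0.0761).

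The pair was compared within each array as Cblb minus Cbl, a difference of log2 signals whose size, and whose change between arrays, can depend on the probes. It was 1.76, 1.78 and 1.77 in conditional arrays, 1.36 in control replicate 1 and 0.33 in control replicate 2. Every conditional array was above both controls, by 0.93 on average. A two-sided exact permutation test gave p = 0.1, the smallest that 3 against 2 arrays allow, and 0.1 after adjustment over the 2 pairs compared.

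The stretches upstream of this pair are shown because calcineurin acts through NFAT, whose core motif can be read in them. RefSeq windows were found for 6 of the 8 members (10 windows, build GRCm38.p6). Each line runs 5′ to 3′ over the 250 bases before the annotated start, and capitals mark the NFAT core GGAAA on either strand, written TTTCC where it lies on the other strand. The Cblb window is chr16:52031299-52031548 on the plus strand and the Cbl window chr9:44234047-44234296 on the minus strand.
Cblb: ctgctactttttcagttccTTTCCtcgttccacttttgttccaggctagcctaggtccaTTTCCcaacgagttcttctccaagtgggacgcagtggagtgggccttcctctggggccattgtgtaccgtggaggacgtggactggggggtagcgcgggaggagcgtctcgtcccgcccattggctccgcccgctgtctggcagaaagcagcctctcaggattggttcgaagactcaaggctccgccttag
Cbl: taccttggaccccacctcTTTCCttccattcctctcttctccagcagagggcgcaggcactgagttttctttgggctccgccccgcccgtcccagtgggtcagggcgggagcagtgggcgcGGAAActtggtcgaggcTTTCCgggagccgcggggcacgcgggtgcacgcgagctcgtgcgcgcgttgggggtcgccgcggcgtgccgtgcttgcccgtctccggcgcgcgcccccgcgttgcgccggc
Cblb holds 2 matches and Cbl 3, a motif found in 55.6% of all 32851 windows of this length. The AP-1 motif TGANTCA, present in 6.75% of them, has no match in any of the 10 member windows. A match in letters is a description and not a binding site. The Cblb window was 58.8% G and C and the Cbl window 71.6%.

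Itch and Ndfip1 work together, since Ndfip1 is a membrane adaptor that binds and activates Itch, a HECT-type ligase known for degrading JunB and restraining Th2 responses. Ndfip1 read 11.14, 11.13 and 11.23 in conditional arrays and 10.62 and 10.72 in control replicates 1 and 2. The groups did not overlap, and the controls differed by 0.10. Limma gave a difference of 0.50 ± 0.105 (SE), a 95% interval of 0.23 to 0.77 and an adjusted p of 0.139. It was 0.55 against control replicate 1 alone (limma, adjusted p = 0.0226) and 0.45 against control replicate 2 alone (limma, adjusted p = 0.103).

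Itch read 10.07, 10.30 and 10.30 in conditional arrays, 9.90 in control replicate 1 and 9.71 in control replicate 2. The groups were apart, with conditional replicate 1 the nearest to the controls. The fit in limma gave a difference of 0.42 ± 0.133 (SE), a 95% interval of 0.08 to 0.76 and an adjusted p of 0.265. Against the controls singly it was 0.32 and 0.51, and neither passed (limma, adjusted p = 0.176 and 0.119). Over the 5 arrays the centred values of Itch and Ndfip1 lay 0.28 apart (Euclidean distance, values not scaled). Of the 28 pairs that the members form it was the second closest, after Peli1 and Dgka at 0.17.

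Peli1 encodes Pellino-1, a ligase that marks the NF-kB subunit c-Rel in T cells. It read 11.18, 11.29 and 11.29 in conditional arrays, 10.27 in control replicate 1 and 11.52 in control replicate 2. The conditional arrays were close to control replicate 2 and well above control replicate 1. Limma gave a difference of 0.36 ± 0.372 (SE), a 95% interval of -0.59 to 1.31 and an adjusted p of 0.736. It was 0.98 without control replicate 2 (limma, adjusted p = 0.00384) and turned to -0.27 without control replicate 1 (limma, adjusted p = 0.330).

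Rnf128 encodes GRAIL, the membrane ligase named for its part in anergic lymphocytes. Its probe set was dim, with a mean at the 32.0 percentile of all genes and no call against background. It read 6.52, 6.53 and 6.35 in conditional arrays, 7.11 in control replicate 1 and 6.20 in control replicate 2. Control replicate 1, the array with the lowest T cell and the highest epithelial marker mean, was the highest. The fit in limma gave a difference of -0.19 ± 0.281 (SE), a 95% interval of -0.91 to 0.53 and an adjusted p of 0.837. It was -0.64 against control replicate 1 alone (limma, adjusted p = 0.0187) and 0.26 against control replicate 2 alone (limma, adjusted p = 0.377).

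Dgka encodes the alpha kinase, which lowers diacylglycerol at the T cell synapse and is abundant in resting T cells. It read 12.56, 12.68 and 12.76 in conditional arrays, 11.51 in control replicate 1 and 12.85 in control replicate 2. The conditional arrays lay just below control replicate 2 and far above control replicate 1. Limma gave a difference of 0.49 ± 0.401 (SE), a 95% interval of -0.54 to 1.51 and an adjusted p of 0.650. It was 1.16 without control replicate 2 (limma, adjusted p = 0.00316) and turned to -0.19 without control replicate 1 (limma, adjusted p = 0.592).

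Dgkz encodes the zeta kinase, the other main brake on diacylglycerol in T cells. It read 9.21, 9.16 and 9.20 in conditional arrays, 8.60 in control replicate 1 and 10.33 in control replicate 2. The conditional arrays agreed to within 0.05, while the controls differed by 1.73, the widest gap among the 8 genes. The fit in limma gave a difference of -0.28 ± 0.503 (SE), a 95% interval of -1.56 to 1.01 and an adjusted p of 0.873. Against control replicate 2 alone, the control whose T cell marker level was near that of the conditional arrays, it was -1.14. With the T cell marker mean as a covariate, a fit close to that comparison, it was -1.02 (limma, adjusted p = 0.0111). Against control replicate 1 alone it was 0.58 (limma, adjusted p = 0.0164). A dimmer probe set of Dgkz read 7.45, 7.26 and 7.44 in conditional arrays and 7.18 and 7.63 in control replicates 1 and 2. There too all 3 conditional arrays fell between the controls, but the difference was -0.02, beside -0.28. Its gap to control replicate 2 was smaller than that of the brighter probe set, on which the values of -1.14 and -1.02 rest.

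Within each array Dgka minus Dgkz, read from the brighter Dgkz probe set, was 3.35, 3.52 and 3.57 in conditional arrays and 2.90 and 2.52 in control replicates 1 and 2. Every conditional array was above both controls, by 0.77 on average (two-sided exact permutation test, p = 0.1, the smallest possible, and 0.1 after adjustment over the 2 pairs). With the dimmer Dgkz probe set the groups overlapped. There conditional replicate 1 (Dgka 12.56, Dgkz 7.45) fell below control replicate 2 (Dgka 12.85, Dgkz 7.63). Taken singly, neither kinase gene separated the groups.

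Read over the 8 genes, 3 had all conditional values above both controls (Cblb, Itch and Ndfip1), a pattern of 17.4% of all genes, and none had all of them below. Either direction together held for 30.5% of all genes. The conditional arrays lay above control replicate 1 and below control replicate 2 for 4 members, against 10.9% of all genes, and in the reverse order for Rnf128, against 6.96%. The median difference of the members was 0.39, beside 0.03 over all genes, which became 0.58 when control replicate 2 was left out and 0.04 when control replicate 1 was.

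The number of members called followed the control used. Without control replicate 1, limma called 2 members, Cblb higher and Dgkz lower, where 6.1% of all genes passed. Without control replicate 2 it called 7 members, with Itch not called, 6 of them higher and Rnf128 lower, where 27.5% of all genes passed. In these fits the lone control is assumed to vary like the conditional arrays. With the T cell marker mean as a covariate the calls were Cblb, higher, and Dgkz, lower, where 7.8% of all genes passed. That mean was 8.47 in control replicate 1 and 10.95 to 11.25 in the other arrays. The covariate thus mostly marks control replicate 1, and this fit is not independent of the fit without that array. The covariate gave 0.93 for Cblb and -1.02 for Dgkz, beside 0.93 and -1.14 without control replicate 1. Centring on that mean shifted every gene by the same amount. On that scale the members read from -0.25 for Cblb to -1.49 for Dgkz, with a median of -0.82 beside -1.18 over all genes. None passed (limma, 0 of 8 also at an unadjusted p under 0.05). Every member had the same SE of 1.11 on that scale, against 0.101 for Cblb without the centring. Differences of this size could therefore not pass, and the result says nothing about the members.

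**Figure D3:**
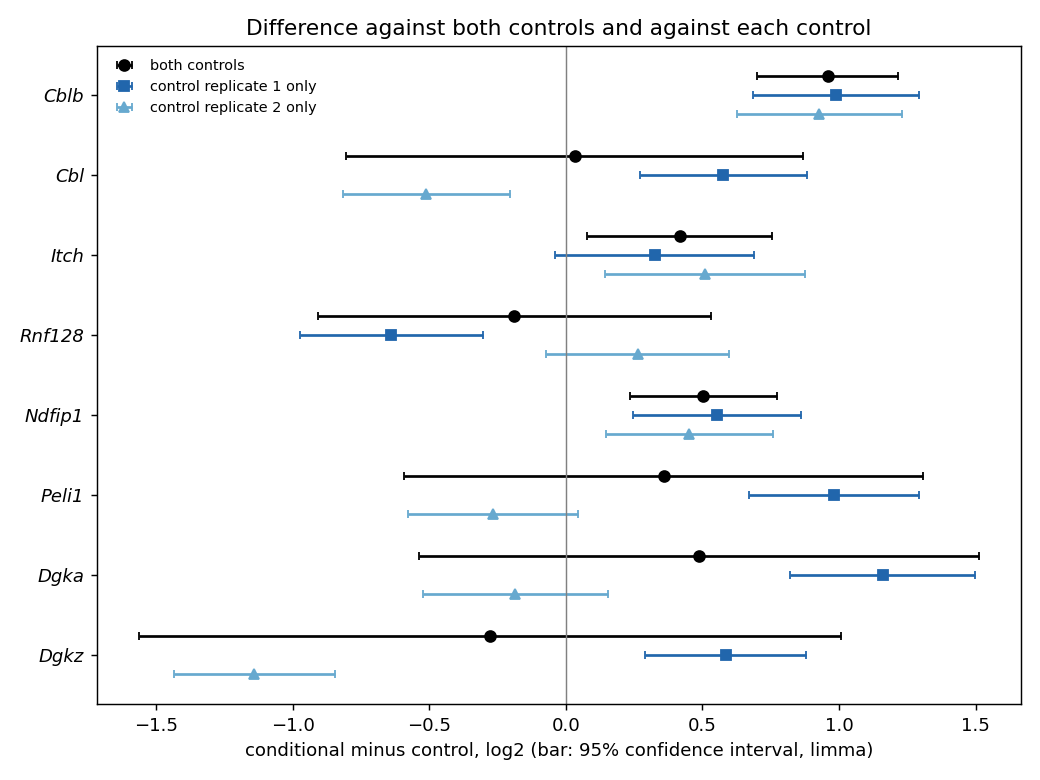
Log2 difference, conditional minus control, of each gene (horizontal axis) with its 95% confidence interval from limma, against both controls (black circles), control replicate 1 alone (squares) and control replicate 2 alone (triangles). Cblb keeps 0.93 to 0.99 in all 3 comparisons, whereas Dgkz goes from 0.58 to -1.14 with the control used.

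The genes around these brakes were read from 7 lists with 108 genes, of which 99 were measured. None passed over all genes in limma, 18 had an unadjusted p under 0.05 (11 higher and 7 lower), or 18.2%, beside 14.5% of all genes, and the median difference was 0.10. Against control replicate 1 alone their median was 0.35, beside 0.09 over all genes. Against control replicate 2 alone it was -0.14, beside -0.02 over all genes. The groups were fully apart for 36.4% of the list genes and 30.5% of all genes. Of all genes, 17.4% had all conditional values above both controls, a share to set beside the list counts below.

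Partners of the CBL proteins had a median of 0.44 over 11 genes, with 5 above both controls and 2 below, and their median ran from 0.15, with control replicate 1 left out, to 0.54, with control replicate 2 left out. Cd2ap, a scaffold that binds CBL proteins, averaged 10.10 ± 0.0847 (SD, n = 3) in conditional arrays, below the controls at 10.65 and 10.71, a difference of -0.59 (limma, adjusted p = 0.115). Crkl, an adaptor that docks with phosphorylated CBL, read 10.57, 10.63 and 10.76 against 10.19 and 10.24, a difference of 0.44 (limma, adjusted p = 0.187). Both genes kept their side of each control, and neither passed.

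Itch belongs to the NEDD4 family of HECT ligases. The list of that family and its adaptors, which also holds the HECT ligase gene Hace1 from outside it, had a median of 0.13 over 10 genes. Of these, 3 were above both controls (Wwp1, Hace1 and the adaptor gene Ndfip2) and 1 was below. Ndfip2, the paralog of Ndfip1, read 10.25, 10.23 and 10.28 against 9.85 and 9.69, a difference of 0.48 (limma, adjusted p = 0.151). That value is close in size to the 0.50 of Ndfip1. Nedd4l, a ligase best known for controlling the epithelial sodium channel, read 7.99, 7.98 and 7.63 against 9.57 and 8.71, a difference of -1.27 (limma, adjusted p = 0.160).

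Relatives of Pellino-1 and GRAIL, listed together with Otub1 and Usp8, genes of enzymes that remove ubiquitin, had a median of 0.02 over 14 genes. In that list 3 lay above both controls, Otub1 among them, and 4 below. Rnf149, a membrane ligase of the GRAIL type, differed by 0.55 (limma, adjusted p = 0.187), and Znrf3, which removes Wnt receptors from the cell surface, by -0.90 (limma, adjusted p = 0.265). The other diacylglycerol kinases had a median of 0.19 over 6 of 8 genes, with Dgkd at -0.45 and Dgkh at 0.24 (limma, adjusted p = 0.450 and 0.511), and none of the 6 had an unadjusted p under 0.05.

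Genes that make or sense diacylglycerol and carry its signal to Ras had a median of 0.07 over 17 of 20 genes. Prkcd, a diacylglycerol-activated kinase, read 10.10, 10.21 and 10.17 against 9.49 and 9.62, a difference of 0.60 (limma, adjusted p = 0.111), and the Ras gene Nras differed by 0.71 (limma, adjusted p = 0.152). For 11 of the 17 the conditional arrays lay above control replicate 1 and below control replicate 2, as for Dgka and Dgkz and for 10.9% of all genes. The median difference of this list changed sign with the control, at 0.50 without control replicate 2 and -0.52 without control replicate 1. The same medians over all genes were 0.09 and -0.02. Rasgrp1, the Ras activator that diacylglycerol recruits in T cells, differed in opposite directions, by 2.32 against control replicate 1 and -1.06 against control replicate 2. Rasgrp1 was chosen as an example after its values were seen.

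Known substrates of the ligases had a median of 0.27 over 16 of 19 genes, which became 0.63 when control replicate 2 was left out and -0.12 when control replicate 1 was. Jun, an AP-1 subunit that Itch targets along with JunB, read 11.42, 11.52 and 11.36 against 12.06 and 12.33, a difference of -0.76 (limma, adjusted p = 0.103). Stat3 read 12.33, 12.28 and 12.18 against 11.70 and 11.68, a difference of 0.57 (limma, adjusted p = 0.116). Neither passed. The other genes tied to anergy and tolerance had a median of 0.01 over 25 of 26. Against control replicate 1 alone it was 0.73, beside 0.09 over all genes, and against control replicate 2 alone -0.60, beside -0.02. Egr2, a zinc finger factor that drives Cblb and other anergy genes, read 8.51, 8.45 and 8.32 against 9.79 and 9.50, a difference of -1.22 (limma, adjusted p = 0.0546), with the sign opposite to that of Cblb. Nr4a1, an immediate-early receptor gene of T cell stimulation, differed by -0.94 (limma, adjusted p = 0.166). For 14 of these 25 genes the conditional arrays lay above control replicate 1 and below control replicate 2, against 10.9% of all genes.

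**Figure D4:**
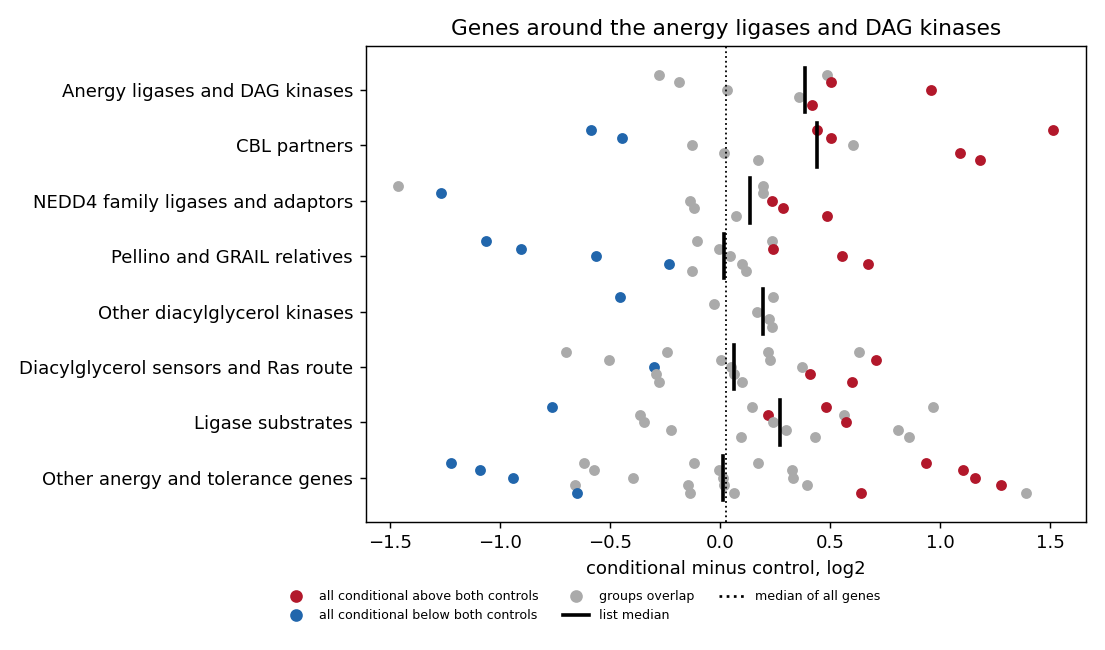
Log2 difference, conditional minus control, of each measured gene (horizontal axis) in the 8 members and 7 lists around them, coloured by whether all conditional values were above both controls, below both or overlapping; the thick bar is the list median and the dotted line the median of all genes (0.03). Cblb is the rightmost of the members at 0.96, and Egr2 is the leftmost of the last list at -1.22.

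The genes most like Cblb over the 5 arrays were Bhlhe40, Mxi1, Mapkapk2, Vgll4 and Apol8, by the Euclidean distance between centred log2 values. Their distances were 0.07, 0.08, 0.12, 0.13 and 0.14. Bhlhe40, a transcription factor gene of activated T cells, read 11.89, 11.93 and 12.01 in conditional arrays and 10.90 and 10.99 in the controls. Mxi1, a MAX partner gene, read 10.13, 10.18 and 10.17 against 9.15 and 9.23. The differences of the 5 genes ran from 0.87 to 0.99, beside 0.96 for Cblb. Likeness over 5 arrays of 2 groups is a description and was not tested.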

How the data were processed

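RNA of 5 sorted samples was hybridised to Affymetrix arrays. Genotype labels set the group of each array, and titles its replicate number. The deposited values are log2 signals. The submitters' processing notes name RMA and oligo as the authors' tools, and RMA removes a global shift in RNA amount and compresses differences of dim genes. Tool versions: not given in the sources used here. RNA integrity was at least 9.2, per the labels' protocols. Array medians were 7.12 to 7.23, and the precision is limited by the small number of arrays.

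Of 34760 probe sets, the platform annotation gave 21640 a single symbol, 1321 several and 11799 none here. Genes were represented by the single-symbol probe set with the highest mean. Groups were compared with limma 3.58.1 in R 4.3.3 (lmFit, eBayes, 3 residual degrees of freedom, no covariate), with Benjamini-Hochberg adjustment over 19937 genes and a threshold of 0.05. A check of the fit on simulated data came first. The simulated arrays had independent noise and none stood apart, so that check does not cover an array like control replicate 1. The members and lists were chosen with earlier results of these data known. Named besides the members were calcineurin subunit genes, from each list the genes past the threshold or else the 2 with the smallest p, and the 5 genes most like the member with the smallest p. Of the T cell markers, 4 are also in the lists. Listed genes not measured by a single-symbol probe set were not analysed here. Upstream windows came from RefSeq, GRCm38.p6. Alternatives were another quantile normalization, centring, filters on dim genes, other probe set choices, a variance trend, array weights, the replicate block, the T cell marker mean as a covariate and each array left out.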

Additional observations from a re-analysis of the deposited data

How the results depend on the processing

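Cblb read higher in 15 of 16 alternatives and passed in 5 of them, and its adjusted p ran from 0.00351 to 0.831 in limma over the 16. No member passed, in place of 1, with arrays centred on their medians (0, median of all genes at 0.12), with the lower quartile filter (0), the median filter (0), the mean of probe sets (0), the probe set with the largest spread (0), array weights (0) or the replicate block (0). Genes past the threshold numbered 83, with 74 higher and 9 lower. They numbered 13 with array weights (13 higher and 0 lower), 15 were lower after a second quantile normalization and 4 with the median filter. Centred on medians, 1 gene of the pathway lists passed, Egr2. Centred on the T cell marker mean, 0 genes passed (0 higher and 0 lower, 0 members), with 964 at an unadjusted p under 0.05. That scaling put the median of all genes at -1.18, and the differences became -0.25 for Cblb, -1.18 for Cbl, -0.79 for Itch, -0.71 for Ndfip1, -0.85 for Peli1 and -0.72 for Dgka. With that mean as a covariate 1555 genes passed (824 higher and 731 lower), with 2 members and 30 list genes, and the differences turned to -0.44 for Cbl, 0.21 for Rnf128, -0.18 for Peli1 and -0.10 for Dgka. The second quantile normalization gave -0.030 for Cbl. The causes were not tested.

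With single arrays left out, limma called 0 to 5474 genes (0 to 2190 higher and 0 to 3284 lower), 0 to 7 members and 0 to 53 list genes, and 3 to 8 members had groups apart. The 0 came without any of the 3 conditional arrays, where 2037, 1677 and 1417 genes had an unadjusted p under 0.05, and the high counts without control replicate 2. Without control replicate 1, limma called 1217 genes (665 higher and 552 lower), 2 members and 25 list genes. Over these fits the difference ran from -0.51 to 0.58 for Cbl, -0.64 to 0.26 for Rnf128, -0.27 to 0.98 for Peli1, -0.19 to 1.16 for Dgka and -1.14 to 0.58 for Dgkz. The 8 members with groups apart came with only 1 control left, where the conditional values need only lie on one side of a single value. The share of all genes apart in those fits was not computed, so the 8 is no result about the members.

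The replicate block gave 0.93 for Cblb (limma, adjusted p = 0.347) and 69 genes past the threshold, and it leaves out conditional replicate 3, which has no control of its number. The deviations of same-numbered arrays correlated at 0.40 and -0.29. With 2 controls the deviations of the controls mirror each other, so these correlations cannot show or exclude pairing. The labels name no pairing, and the numbers were not taken to pair the samples.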
